A study of Rattus norvegicus with 6 samples.

Results

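The MHC class I peptide loading pathway was examined in HEI-OC1 cells after knockdown of Hnrnpd. Its members were taken by gene symbol, under a rule that uses no measured value but was written with earlier results of these data known, as B2m, Tap1, Tap2, Tapbp, Calr, Canx, Pdia3, Erap1 and Nlrc5. These 9 genes occupied 10 of the 18718 rows of the deposited count table, because Tap2 was listed under 2 gene identifiers, and 10 of 10 rows passed the filter on low counts, as did 12268 rows in all. Proteasome subunits and the class I heavy chains were left out of the set. Total RNA was sequenced in 3 libraries of cells given an siRNA against Hnrnpd, called siHnrnpd 1 to 3 and labelled as AUF1 knock down, and in 3 libraries of cells given a control siRNA, called control 1 to 3. AUF1 is the protein of Hnrnpd and binds AU-rich elements in mRNA. The time between siRNA treatment and harvest is not given in the sources used here. The labels do not say whether replicates were separate cultures, and the spread behind each p-value may therefore be technical.

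HEI-OC1 is an established auditory line derived from the organ of Corti of a mouse that carries a temperature-sensitive large T antigen transgene under an interferon-inducible class I promoter, so both groups share that construct. The labels give the organism as rat, and the reads were aligned to a rat genome. From which species they came was not examined, and comparisons of level between genes carry that limit.

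In the loading pathway, peptides cut from cytosolic proteins are carried into the endoplasmic reticulum by the transporter associated with antigen processing, a heterodimer of Tap1 and Tap2. There the aminopeptidase Erap1 trims them, and new class I heavy chains bind the light chain beta-2 microglobulin, encoded by B2m. Calnexin (Canx) and calreticulin (Calr) are lectin chaperones that hold the folding class I molecule, the oxidoreductase ERp57 (Pdia3) works with them, and tapasin (Tapbp) bridges the empty molecule to the transporter. Nlrc5 is a transactivator of class I genes, and many genes of the pathway are induced by interferon, whereas Calr, Canx and Pdia3 serve glycoprotein folding in general.

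Hnrnpd itself (listed as Hnrpd, ENSRNOG00000002292, chromosome 14) had 177, 200.2 and 183 CPM, the read count relative to the TMM-scaled library size, in siHnrnpd 1 to 3, against 319, 303 and 269 CPM in control 1 to 3. The siHnrnpd values all lay below the control values, and edgeR gave a log2 change of -0.67 ± 0.082 (SE) with a Benjamini-Hochberg adjusted p = 0.0426. The adjusted p was 0.0458 without siHnrnpd 2 and 0.0508 to 0.319 without any other library, 0.0873 with the replicate number as a block and 2.11e-10 by DESeq2, with a log2 change of -0.74 to -0.63 in these fits. The libraries held 28984535 to 35842904 counts. Of 8 hair cell markers, Pou4f3, Atoh1 and Tmc1 had no row under those symbols, Gfi1 and Slc26a5 were at 0 to 0.11 CPM, Otof and Myo7a at 0.064 to 0.55 CPM, and Myo6 at 31.5 to 37.0 CPM in siHnrnpd and 33.1 to 41.2 CPM in control. Among immune cell markers, Ptprc, the pan-leukocyte antigen, had 0 to 0.030 CPM in siHnrnpd and 0 to 0.032 CPM in control, while Cd14 had 65.6 to 69.4 CPM in siHnrnpd and 57.9 to 62.7 CPM in control. The summed CPM of the 11 immune markers matched, most of it Cd14, was 70.1 to 73.0 in siHnrnpd and 62.0 to 66.9 in control. Of the 4 that were tested, 2 had a positive and 2 a negative log2 change, Itgax (-0.44) and Cd68 (-0.11) being the negative ones, with 0 called by edgeR or DESeq2 and 0 at an unadjusted p under 0.05. Of 6 supporting cell markers 3 matched: Prox1 was at 0 to 0.061 CPM, Jag1 at 15.3 to 20.2 CPM in siHnrnpd and 17.6 to 20.1 CPM in control, and Slc1a3 at 43.4 to 46.0 CPM in siHnrnpd and 50.2 to 57.9 CPM in control, without overlap (log2 change -0.27, edgeR adjusted p = 0.264). The part of the cells these markers stand for in the results was not tested.

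Rat promoter sequences from RefSeq (build GRCr8) were found for 6 of the 9 genes, B2m, Tap1, Tap2, Tapbp, Calr and Canx. The 250 bases before each transcript start were searched on both strands for an interferon regulatory factor type element (GAAA, any 2 bases, GAAA), for an NF-kB type element (GGGA, any 1 base, TTTCC) and for the CCAAT box, CCAAT. The patterns were chosen with the sequences in view, the windows are of the rat, and the count table carries contig names of an older rat assembly than the build its notes name, so they are shown to let the genes of the pathway be compared by sequence. The windows of B2m, Tap1, Tapbp and Calr follow, 5′ to 3′ on the strand of the gene, with matches in capitals:
B2m, chr3:129549080-129549329, plus strand: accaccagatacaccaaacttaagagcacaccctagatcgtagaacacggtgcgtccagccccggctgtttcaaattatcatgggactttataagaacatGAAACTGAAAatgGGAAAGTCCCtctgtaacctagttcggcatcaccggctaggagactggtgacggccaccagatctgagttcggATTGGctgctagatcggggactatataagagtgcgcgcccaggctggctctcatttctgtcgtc
Tap1, chr20:4668544-4668793, minus strand: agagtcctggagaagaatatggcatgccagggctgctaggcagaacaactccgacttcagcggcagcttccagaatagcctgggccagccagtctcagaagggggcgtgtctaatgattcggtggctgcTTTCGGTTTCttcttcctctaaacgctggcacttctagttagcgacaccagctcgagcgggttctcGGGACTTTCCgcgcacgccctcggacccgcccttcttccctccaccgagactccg
Tapbp, chr20:4967878-4968127, minus strand: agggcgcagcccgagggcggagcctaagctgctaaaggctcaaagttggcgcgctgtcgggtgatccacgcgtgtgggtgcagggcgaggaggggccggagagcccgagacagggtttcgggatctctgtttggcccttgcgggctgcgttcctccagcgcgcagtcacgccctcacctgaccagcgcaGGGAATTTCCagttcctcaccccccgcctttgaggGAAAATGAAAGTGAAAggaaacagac
Calr, chr19:40213117-40213366, plus strand: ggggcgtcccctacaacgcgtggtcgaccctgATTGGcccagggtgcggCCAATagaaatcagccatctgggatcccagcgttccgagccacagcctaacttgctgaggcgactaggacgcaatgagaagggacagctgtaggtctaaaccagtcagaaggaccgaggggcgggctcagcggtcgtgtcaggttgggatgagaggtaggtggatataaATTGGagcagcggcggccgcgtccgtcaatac

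The interferon regulatory factor type element occurred in 4 of the 6 windows, those of B2m, Tap1, Tap2 and Tapbp, against 3.41% of 33469 rat promoter windows of the same length. In Tapbp it occurred at 2 overlapping places, so that the capitals nearest the start of that window run through both matches. The NF-kB type element occurred in 3 windows, those of B2m, Tap1 and Tapbp, against 0.314% of all windows. In B2m the element lies close behind the interferon type element, and in Tap1 and Tapbp it lies nearer to the start, at 55 and 61 bases before it. The Calr and Canx windows held 3 and 2 CCAAT boxes and no match to the other patterns, and 34% of all windows held a CCAAT box. The patterns were chosen with these sequences in view, so the shares of all windows cannot show an enrichment in the pathway. A match is a description of letters and not a site in use.

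**Figure D1:**
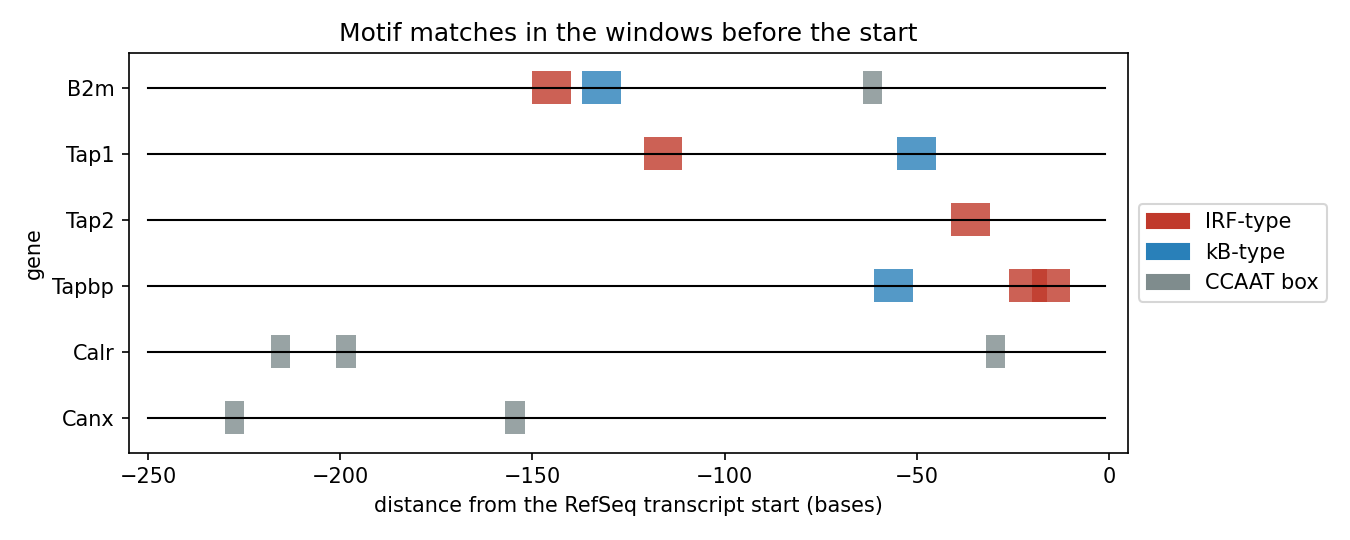
Motif matches in the 250 bases before the RefSeq transcript start of 6 genes, with the distance from the start in bases on the horizontal axis and 1 line per gene. Interferon type matches (red) appear in B2m, Tap1, Tap2 and Tapbp, NF-kB type matches (blue) in B2m, Tap1 and Tapbp, and CCAAT boxes (grey) in B2m, Calr and Canx.

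B2m and Erap1 had the lowest unadjusted p of the pathway, and no member passed the test over all genes. B2m averaged 80.3% of its control level in siHnrnpd libraries and Erap1 76.4%, while Calr, at 106%, was the member with a positive log2 change. By edgeR 0 of the 10 rows were called in either direction at an adjusted p under 0.05, in a comparison where 0.0815% of 12268 genes were called, 3 of them higher and 7, or 0.0571%, lower. An unadjusted p under 0.05 was reached by 2 members that were lower and 0 that were higher, where 5.20% of all genes tested were lower and 5.84% higher. DESeq2 also called 0 members, with 1.41% of 11453 genes called and 0.934% called lower, and the same number, 2, had an unadjusted p under 0.05. The Tap2 row ENSRNOG00000000455 received no adjusted p from DESeq2 and so could not be called by it. The log2 change was negative in 9 of 10 rows, against 48.3% of all genes tested, with a median of -0.19 over the rows and 0.0054 over all genes tested. That median was -0.12 without siHnrnpd 3, with 7 of 10 rows negative, and -0.30 both without siHnrnpd 2 and without control 1. The rows are not separate observations, since Tap2 enters on 2 of them and some members varied together over the libraries. Pearson r of log2 CPM was 0.986 for Tap1 with Tapbp and 0.126 for Calr with Canx. Fewer cells with a given level and less RNA per cell cannot be told apart in these bulk samples.

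B2m (ENSRNOG00000017123, chromosome 3), the light chain needed by every class I molecule at the cell surface, had 1592, 1668 and 1263 CPM in siHnrnpd 1 to 3, against 1746, 2001 and 1888 CPM in control 1 to 3. These rest on 41253 to 55706 counts in siHnrnpd libraries and 50650 to 68230 in control libraries. The highest siHnrnpd library lay below the lowest control library, and siHnrnpd 3 was the lowest of the 6. B2m was the 1 member whose groups did not overlap, where 17.0% of all genes tested did not overlap, 8.57% lower and 8.42% higher. The means were 1508 ± 215 CPM in siHnrnpd and 1879 ± 128 CPM in control (SD, n = 3 each), and the log2 change of -0.32 ± 0.11 (SE) missed the threshold (edgeR adjusted p = 0.341). Leaving out each library in turn gave log2 changes of -0.40 to -0.22, with the smallest of these without siHnrnpd 3. The authors' FPKM, a level per length, were 710 ± 90.5 in siHnrnpd and 875 ± 55.8 in control (SD, n = 3 each).

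**Figure D2:**
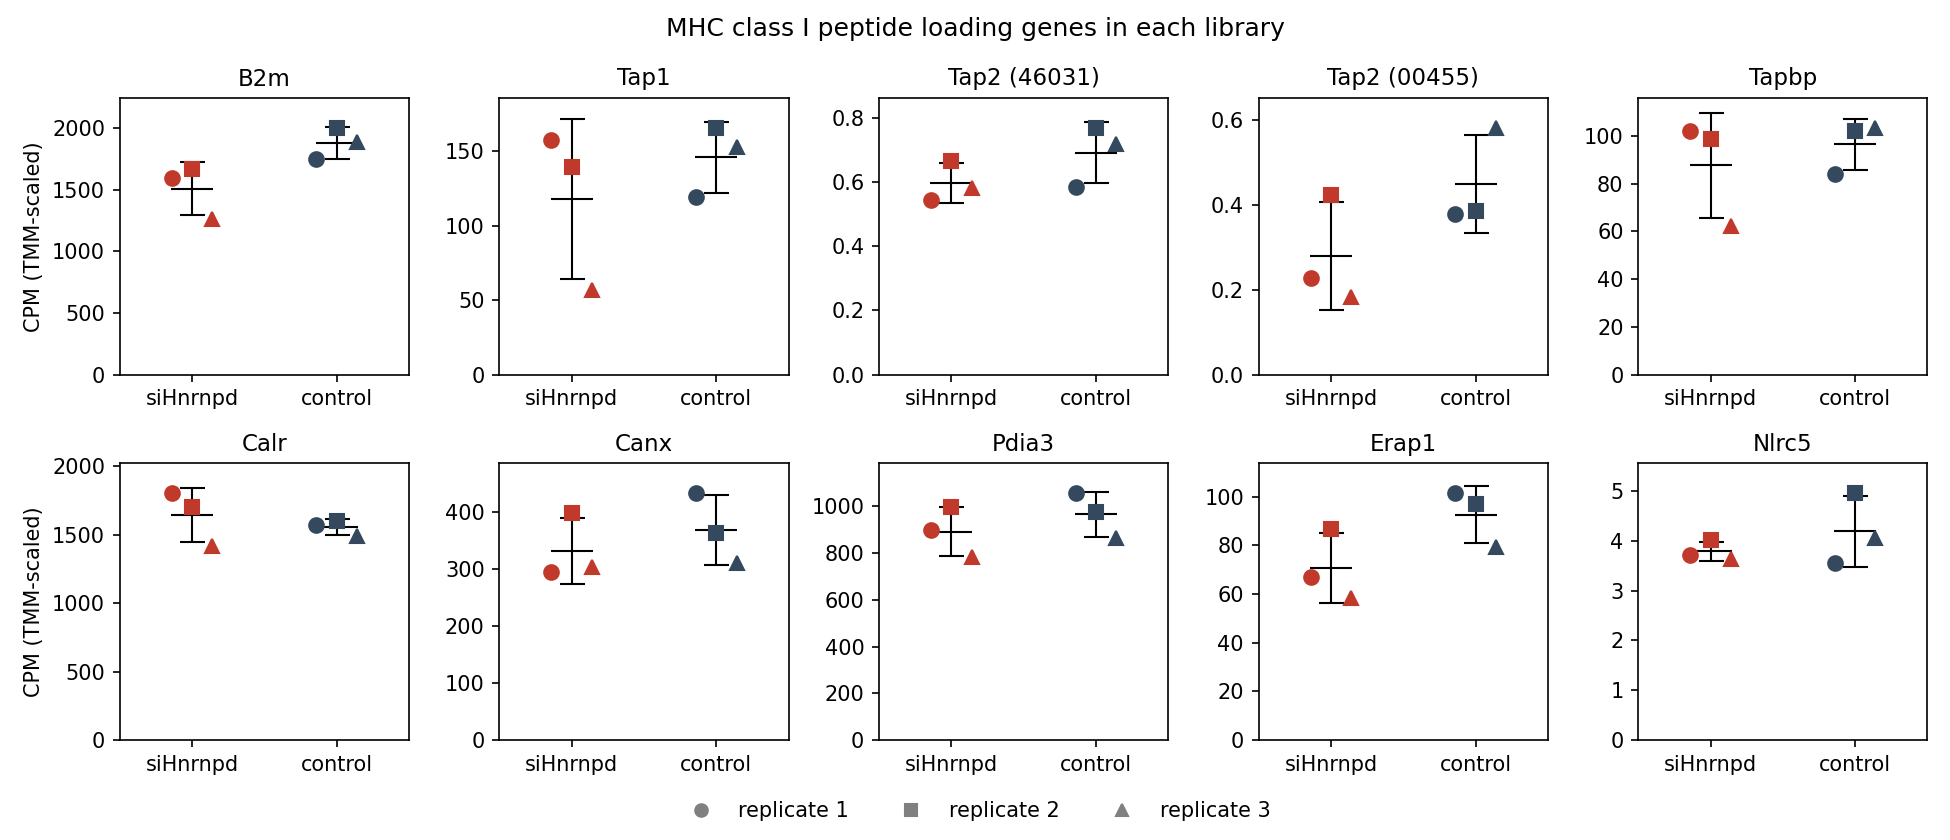
CPM after TMM scaling in each library for the 10 rows of the 9 genes, siHnrnpd (red) left of control (dark blue), with the mean and SD as black bars and the marker shape giving the replicate number. Each panel starts at 0 and has its own scale. B2m is the panel in which the groups do not overlap, and in Tap1 the siHnrnpd 3 library, at 56.7 CPM, lies apart from the other 5.

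Tap1, of the transporter, and its bridge Tapbp differed mainly in a single library. Tap1 (ENSRNOG00000000457, chromosome 20), which forms the peptide pore with Tap2, had 158, 139 and 56.7 CPM in siHnrnpd 1 to 3, against 119, 166 and 153 CPM in control 1 to 3. Libraries siHnrnpd 1 and 2 lay within the control range, while siHnrnpd 3 was at 38.9% of the control mean. The log2 change was -0.31 ± 0.30 (SE, edgeR adjusted p = 0.752), and without siHnrnpd 3 it was 0.014 (adjusted p = 0.983). Tapbp (ENSRNOG00000029500, chromosome 20), the bridge between transporter and class I molecule, had 102, 98.6 and 62.5 CPM in siHnrnpd 1 to 3, against 84.1, 102 and 103 CPM in control 1 to 3. Here too siHnrnpd 3 stood below the other 5 libraries, at 64.7% of the control mean, and the other siHnrnpd libraries were within the control range. The Tapbp log2 change of -0.14 had an SE of 0.17 (edgeR adjusted p = 0.803) and became 0.044 without siHnrnpd 3 (adjusted p = 0.912).

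Tap2, the other subunit of the transporter, was barely detected. Its first row (ENSRNOG00000046031) held 19, 22 and 19 counts in siHnrnpd 1 to 3, against 17, 24 and 26 in control 1 to 3. The second row (ENSRNOG00000000455) held 8, 14 and 6 counts in siHnrnpd 1 to 3, against 11, 12 and 21 in control 1 to 3. The groups overlapped in both rows, and neither of their log2 changes, -0.22 and -0.70, was called (edgeR adjusted p = 0.796 and 0.546). Leaving out each library in turn gave -0.33 (without control 1) to -0.14 (without control 2) for the first row and -1.12 (without siHnrnpd 2) to -0.45 (without control 3) for the second. Reads that fit both rows could have been split or dropped by the authors' counting, so the level of Tap2 is uncertain. With the rows summed, an alternative chosen after seeing that Tap2 is listed on 2 rows, the log2 change was -0.39 ± 0.24 (SE, edgeR adjusted p = 0.579). Per length, Tap1 exceeded the summed Tap2 rows by a ratio of 131, 79.4 and 46.2 in siHnrnpd 1 to 3 and of 79.0, 93.3 and 72.5 in control 1 to 3.

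Erap1 (ENSRNOG00000009997, chromosome 2), which shortens peptides to the length that class I binds, had 67.1, 86.7 and 58.5 CPM in siHnrnpd 1 to 3, against 102, 96.9 and 79.4 CPM in control 1 to 3. The groups overlapped through siHnrnpd 2, which exceeded control 3. The means were 70.8 ± 14.4 CPM in siHnrnpd and 92.6 ± 11.7 CPM in control (SD, n = 3 each), with a log2 change of -0.39 and an SE of 0.14 (edgeR adjusted p = 0.367). Leaving out each library in turn gave log2 changes of -0.56 to -0.28 and adjusted p of 0.203 to 0.850. Nlrc5 (ENSRNOG00000048222, chromosome 19), the class I transactivator, was low throughout, with 3.71, 4.01 and 3.64 CPM in siHnrnpd 1 to 3, against 3.55, 4.97 and 4.07 CPM in control 1 to 3. Its log2 change of -0.15 had an SE of 0.16 (edgeR adjusted p = 0.774), and it was -0.0093 without control 2.

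Of the general chaperones, Calr (ENSRNOG00000003029, chromosome 19) had 1806, 1707 and 1420 CPM in siHnrnpd 1 to 3, against 1574, 1601 and 1493 CPM in control 1 to 3. The siHnrnpd libraries lay on either side of the controls, with siHnrnpd 1 and 2 above all 3 of them and siHnrnpd 3 below. The log2 change was 0.080 ± 0.094 (SE, edgeR adjusted p = 0.797), and it was 0.16 without siHnrnpd 3 (adjusted p = 0.507) and 0.0072 without siHnrnpd 1 (adjusted p = 0.994). Canx (ENSRNOG00000003343, chromosome 10) had 294, 398 and 304 CPM in siHnrnpd 1 to 3, against 434, 363 and 310.2 CPM in control 1 to 3. Its groups overlapped, with SDs of 57.5 CPM in siHnrnpd and 62.0 CPM in control, and its log2 change was -0.15 ± 0.14 (SE, edgeR adjusted p = 0.733). Pdia3 (ENSRNOG00000015018, chromosome 3) had 898, 996 and 783 CPM in siHnrnpd 1 to 3, against 1058, 976 and 867 CPM in control 1 to 3. It overlapped as well, with a log2 change of -0.12 and an SE of 0.10 (edgeR adjusted p = 0.722). Without control 1 the log2 changes of Canx and Pdia3 were -0.029 and -0.058, and without siHnrnpd 2 they were -0.30 and -0.20.

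**Figure D3:**
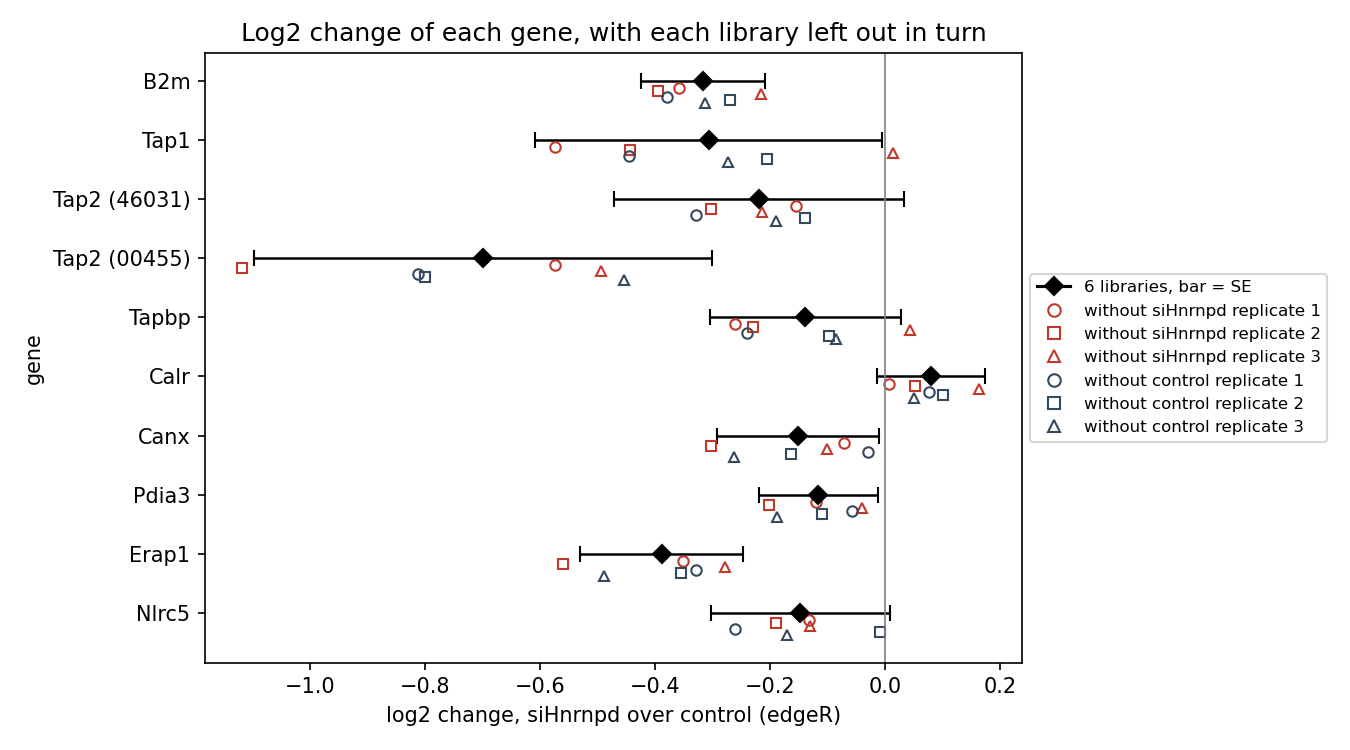
Log2 change of siHnrnpd over control for the 10 rows, as a black diamond with its SE for all 6 libraries and as open symbols for the fit without each library. Tap1 and Tapbp cross 0 when siHnrnpd 3 is left out, at 0.014 and 0.044, while B2m stays between -0.40 and -0.22.

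Seen library by library, siHnrnpd 3 was the lowest of the 6 libraries in 7 of the 10 rows, against 18.3% of all genes tested. Relative to the mean log2 CPM of the controls, Tap1 stood at 0.13, -0.053 and -1.35 in siHnrnpd 1 to 3, Tapbp at 0.086, 0.037 and -0.62, and B2m at -0.24, -0.17 and -0.57. The depth of siHnrnpd 3, 31735235 counts, lay within the range of the others. Its Hnrpd level, at 183 CPM, lay between those of siHnrnpd 1 and 2. The median log2 distance of all genes tested from the control mean was 0.00042, 0.013 and 0.0097 in siHnrnpd 1 to 3. TMM scaling holds this median near 0, so it cannot show whether a library differs as a whole.

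**Figure D4:**
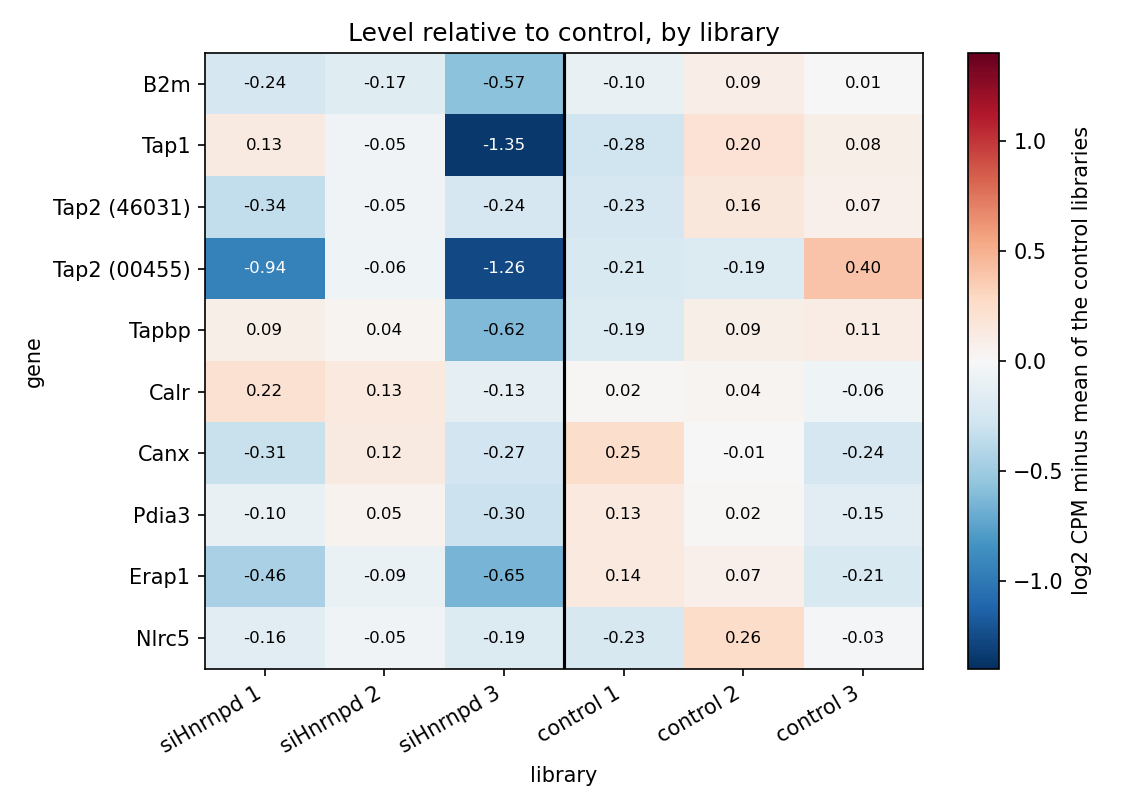
Log2 CPM of the 10 rows in each library minus the mean of the 3 control libraries, siHnrnpd left of control, blue for lower and red for higher. The column of siHnrnpd 3 is below 0 in each row and reaches -1.35 in Tap1, while Tap1 and Tapbp lie within the control range in siHnrnpd 1 and 2.

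Levels of different members were compared per length, with the authors' FPKM. In control libraries the order was B2m at 875 ± 55.8, Calr at 693 to 720.1, Pdia3 at 438 ± 39.7, Canx at 62.9 ± 10.2, Tapbp at 52.6 ± 6.08, Tap1 at 24.5 to 33.6, Erap1 at 15.7 ± 1.80, Nlrc5 at 0.62 ± 0.10 and the Tap2 rows at 0.21 ± 0.029 and 0.16 ± 0.046 FPKM (mean ± SD or range, n = 3). In that order the ranges of Canx and Tapbp overlapped, as did those of the Tap2 rows, while the other neighbours were separate. In siHnrnpd libraries Calr, at 758 ± 82.8 FPKM, and B2m, at 710 ± 90.5 FPKM, stood in the opposite order and overlapped (SD, n = 3). The ratio of B2m to Calr, which does not depend on library scaling, was 0.899, 0.998 and 0.908 in siHnrnpd 1 to 3, against 1.13, 1.28 and 1.29 in control 1 to 3. The groups did not overlap in this ratio, which was chosen after its values were seen and is given with no test. The ratio of Tapbp to Tap1 was 1.71, 1.87 and 2.92 in siHnrnpd 1 to 3, against 1.87, 1.63 and 1.80 in control 1 to 3, so siHnrnpd 3 was again the library apart. Calr per Canx ran from 11.5 to 16.4 in siHnrnpd and from 9.70 to 12.9 in control, and those ranges overlapped.

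**Figure D5:**
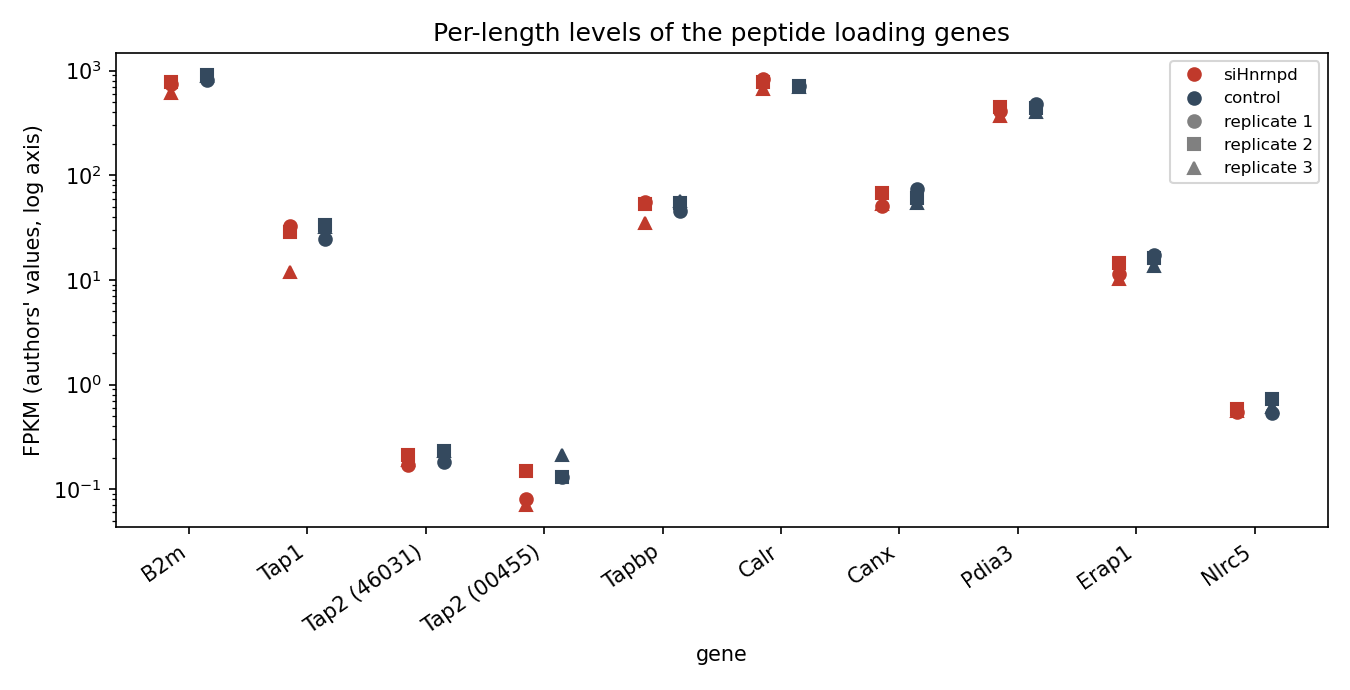
The authors' FPKM of the 10 rows on a log axis, siHnrnpd (red) left of control (dark blue) for each gene, with marker shape for the replicate number. B2m, Calr and Pdia3 lie above 365 FPKM in every library, the Tap2 rows and Nlrc5 at or below 0.73 FPKM.

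Among 6587 genes that averaged 20 CPM or more, those whose log2 CPM followed B2m most closely over the 6 libraries were Isg15, Psme1, Rnaset2, Trim26 and Ifit3, with Pearson r of 0.994, 0.993, 0.993, 0.991 and 0.990. Isg15, a ubiquitin-like protein, and Ifit3 are known as interferon-induced genes, and Psme1 encodes a subunit of the proteasome activator. No function is given here for Rnaset2 and Trim26, so the named functions do not describe the whole group. Isg15 had 198, 210.2 and 84.5 CPM in siHnrnpd 1 to 3, against 238, 357 and 337 CPM in control 1 to 3. For Calr the closest were Rpl4, Fads1, Ghitm, Wars and Creld2, with r of 0.999, 0.985, 0.984, 0.984 and 0.983. Rpl4, the closest, had 1668, 1623 and 1462 CPM in siHnrnpd 1 to 3, against 1540, 1562 and 1505 CPM in control 1 to 3. Creld2, known as a target of endoplasmic reticulum stress, was the last of those named. The CPM of Creld2 were 194, 169 and 127 in siHnrnpd 1 to 3, against 147, 154 and 144 in control 1 to 3. These genes were picked for following Calr, so a shared order of libraries is part of the choice. Each correlation rests on 6 points, and these are the same libraries for every gene. With 6587 genes searched over 6 points, high r values can also arise by chance.

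The further genes of the pathway were read from 3 lists with 18, 15 and 16 tested genes. In them edgeR called 0 genes and DESeq2 called Tapbpl, Irf1 and Stat2 lower (DESeq2 adjusted p = 0.0479, 0.00106 and 0.0186). Over the whole table DESeq2 called 0.934% of 11453 genes lower. Of all genes tested by edgeR, 48.3% had a negative log2 change. An unadjusted edgeR p under 0.05 was found for 5.20% lower and 5.84% higher. Groups did not overlap in 8.57% lower and 8.42% higher. In the calnexin cycle and folding list, 15 of 18 tested genes had a positive log2 change and 3 a negative one, with a median of 0.050, and an unadjusted p under 0.05 was found for 1 higher and 0 lower genes. That 1 was Lman1, a cargo receptor for glycoproteins, with 35.3, 37.5 and 32.3 CPM in siHnrnpd 1 to 3 and 30.7, 31.2 and 30.9 CPM in control 1 to 3 (edgeR adjusted p = 0.432). Hspa5, the chaperone BiP, had 1479, 1371 and 818 CPM in siHnrnpd 1 to 3, against 1056, 1014 and 890 CPM in control 1 to 3 (edgeR adjusted p = 0.564). As in Calr, siHnrnpd 1 and 2 lay above the controls and siHnrnpd 3 below them. Sdf2l1, which works with BiP, had a log2 change of 0.23 (edgeR adjusted p = 0.491).

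In the list of peptide trimming, import and class I turnover, 10 of 15 tested genes had a positive log2 change and 5 a negative one, with a median of 0.0099, and an unadjusted p under 0.05 was found for 0 higher genes and 1 lower. That gene was Tapbpl, a tapasin relative that edits peptides on class I molecules. It had 12.3, 15.7 and 12.6 CPM in siHnrnpd 1 to 3, against 16.1, 19.5 and 20.4 CPM in control 1 to 3, with no overlap and a log2 change of -0.47 (edgeR adjusted p = 0.264). Unlike Tap1 and Tapbp, siHnrnpd 3 was not the lowest library for Tapbpl. Susd6, part of a membrane complex known in human cells to remove class I molecules, and Sec61b, of the channel into the endoplasmic reticulum, had log2 changes of -0.16 and 0.11 (edgeR adjusted p = 0.597 and 0.626).

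The list of class I transcription control holds transcription factors and other regulators such as Ezh2. In it 11 of 16 tested genes had a negative log2 change and 5 a positive one, with a median of -0.12. An unadjusted edgeR p under 0.05 was found for 0 higher genes and 3 lower. Irf1, a transcription factor of class I and Tap1 promoters, had 77.5, 78.0 and 64.1 CPM in siHnrnpd 1 to 3, against 93.1, 104 and 105 CPM in control 1 to 3. The groups did not overlap, and the log2 change of -0.46 was not called (edgeR adjusted p = 0.133). Stat2, part of the complex that carries type I interferon signals, had 291, 290 and 177 CPM in siHnrnpd 1 to 3, against 338, 390 and 379 CPM in control 1 to 3 (edgeR adjusted p = 0.313). In Irf1 and Stat2, siHnrnpd 3 was the lowest library, as in B2m, Tap1 and Tapbp. It was the lowest in 4 of the 16 tested genes of this list, against 18.3% of all genes tested. In the folding list it was the lowest in 11 of 18 tested genes, and in the trimming list in 2 of 15. The part of interferon signalling in the values of the members was not tested. Class II presentation was near the limit of detection, with a summed CPM of 0.72 to 1.35 in siHnrnpd and 0.96 to 1.27 in control over 10 matched genes.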

How the data were processed

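Total RNA of 3 siHnrnpd and 3 control libraries of HEI-OC1 cells was analysed. Per the submitters' processing notes, the authors aligned reads with TopHat2 and name the build mRatBN7.2. For the aligner's version, the counter, strand setting and annotation, nothing is given in the sources used here. Of the 2 deposited tables, one gives raw read counts per gene in whole numbers and the other FPKM computed by the authors. Columns were matched to samples by siRNA name and replicate number, which left 0 columns over.

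The count test was the quasi-likelihood test of edgeR 4.0.16 in R 4.3.3, with TMM scaling, the filterByExpr filter and the group as its sole term. Adjustment was by Benjamini and Hochberg over 12268 genes, at a threshold of 0.05. DESeq2 1.42.0, other scaling and filters, a replicate block, leaving out each library, and limma 3.58.1 on log2(FPKM + 1) or log2(FPKM + 0.1), which understates changes of low genes, served as alternatives. The fits were tested on simulated data. A chi-square test found each of the 15 pairs of libraries to differ beyond counting noise.

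The members and lists were chosen with earlier results of these data known. Named genes were Hnrnpd, the members, the 3 smallest adjusted p of each further list about the pathway, and the 5 genes most like B2m and Calr. Marker genes were named after their values were seen. By symbol or synonym, 20 of 20 folding, 17 of 18 trimming and 18 of 18 transcription genes matched. Some results are not reported here.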

Additional observations from a re-analysis of the deposited data

How the results depend on the processing

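The counts of genes called over the whole table moved widely. Against 7 lower and 3 higher, DESeq2 called 107 lower and 55 higher, and the fit with no filter on low counts 101 and 46. With a minimum mean FPKM of 1, limma called 0 lower and 0 higher on log2(FPKM + 1), with 1136 genes under an unadjusted p of 0.05, and likewise 0 and 0 on log2(FPKM + 0.1), with 1107. Without that minimum it called 1 lower and 0 higher on log2(FPKM + 1), with 1779. Leaving out each library gave 0 to 7 lower and 0 to 7 higher. The causes were not tested. The replicate number as a block called 0 lower and 0 higher, with 1062 genes at an unadjusted p under 0.05 and 0 members called. Same-numbered libraries deviated from their group means with correlations of -0.25, 0.14 and 0.11, and differently numbered ones with -0.33 to 0.23. With 3 libraries in each group these values cannot decide whether same-numbered libraries were paired, and the labels do not say.

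Members called stayed at 0 under each alternative listed here, as they did with RLE size factors. Members without overlap numbered 1 to 4 of 9 with 1 library left out, where 21.1% to 35.7% of all genes did not overlap. Of 125 recomputed log2 changes of members, 123 kept their direction and their side of the threshold. The Tap2 row without an adjusted p in DESeq2 was counted there as not called. Tap1 and Tapbp reversed, to 0.014 and 0.044, without siHnrnpd replicate 3; leaving out each library gave -0.57 to 0.014 for Tap1 and -0.26 to 0.044 for Tapbp. Tap2 and Nlrc5 fell under the FPKM minimum. Tap2, with 6 to 26 counts a row, is the member with the fewest counts.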
